A study of Mus musculus with 32 samples.

Results

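Tmem204, Upk1b, Khdrbs3, Gpr165, Golm1, Abcg3, Thsd1 and Pecam1 are 8 genes that stood lower in repopulated than in resident microglia of the mouse spinal cord. They were chosen for that difference in these libraries, so their repopulated and resident levels are given below as a description. Counts of them that passed the fit over all genes are printed beside the share or number of all genes, and are no evidence for the difference. Of the 13704 genes listed in either of the 2 deposited tables, the male table of 11999 genes listed all 8, with 17 transcripts. The female table of 13377 genes listed 7 of them, also with 17 transcripts, and did not list Khdrbs3.

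All 32 libraries came from fluorescence-sorted spinal cord microglia, were labelled day 14 and carried the genotype label Cx3Cr1-Cre;Rosa26-iDTR, in which tamoxifen and then diphtheria toxin remove Cx3cr1-expressing cells for a time. Repopulated libraries are those labelled as depleted, and resident libraries those labelled as not depleted. In females there were 4 repopulated and 4 resident libraries with fracture, and 3 repopulated and 4 resident libraries without fracture. In males there were 7 repopulated and 5 resident libraries with fracture, and 2 repopulated and 3 resident libraries without fracture. The sample descriptions name depleted libraries Dt (females) or iDTR (males) and the remaining ones wild type, although the genotype label of all is the same. Effects of the genotype or of the toxin itself therefore cannot be told apart from repopulation. The driver acts in all cells that express Cx3cr1, which include other macrophages. Whether replicates came from different animals is not stated in the labels, and the spread behind each p-value may then be technical.

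Sex and library preparation were the same split, and the tables were analysed apart. Library totals were 16438827 to 18654165 estimated counts in females and 5722993 to 33697535 in males. All 8 microglia markers examined were listed in both tables, and their summed level was 39550 to 48672 CPM (the estimated count scaled to a common library size) in females and 45675 to 59326 CPM in males. Of 30 endothelial markers, 7 were listed in each table, and Cldn5, Cdh5, Tie1, Tek, Emcn and Vwf were listed in neither. No marker of pericytes or of T and NK cells was listed. Of 9 oligodendrocyte markers 7 were listed in females, at 2858 to 3082 CPM summed in repopulated and 2421 to 2495 CPM in resident libraries with fracture. In males 6 were listed, at 2616 to 3487 and 2447 to 2751 CPM. Without fracture the ranges overlapped in both tables. Of 8 astrocyte markers 7 were listed in females and 4 in males. The part of such cells was not tested. In bulk RNA, fewer cells of a type and less RNA per cell cannot be told apart.

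Most of the 8 genes encode membrane proteins. Microglia meet their surroundings through surface receptors, adhesion molecules and transporters, and part of this surface set is characteristic of the homeostatic state that microglia adopt in undisturbed tissue. Pecam1, also called CD31, is an adhesion receptor of endothelial cells, platelets and leukocytes that carries inhibitory tyrosine motifs in its cytoplasmic tail. Thsd1 is a membrane protein with a thrombospondin repeat that acts in endothelial focal adhesions, and Tmem204 is a claudin-like membrane protein of endothelial cell junctions. Upk1b is a tetraspanin best known from the urothelium, Gpr165 an orphan G protein-coupled receptor, and Abcg3 a member of the G family of ATP-binding cassette transporters. Golm1 is a membrane protein of the Golgi apparatus, and Khdrbs3 is an RNA-binding protein of the STAR family that regulates splicing.

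Several of the genes had more than 1 listed transcript, and the sequences below are shown because they are stretches in which transcripts of Pecam1, Thsd1 and Abcg3 differ inside the coding region. They are joined exon sequences from the GENCODE transcripts of mouse build GRCm38, read 5′ to 3′ on the gene's strand, with 15 bases of each neighbouring exon in lower case and the exon that one transcript skips in capitals. In Pecam1 the exon is exon 14 of Pecam1-202, 57 bases at chr11:106671742-106671798 on the minus strand, and it lies in the part that encodes the cytoplasmic tail. Pecam1-203 skips it, and Pecam1-204 keeps it and adds an exon of 23 bases after it, shown in lower case.
Pecam1-202: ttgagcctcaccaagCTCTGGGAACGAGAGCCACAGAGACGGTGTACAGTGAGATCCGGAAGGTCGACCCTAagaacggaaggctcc
Pecam1-204: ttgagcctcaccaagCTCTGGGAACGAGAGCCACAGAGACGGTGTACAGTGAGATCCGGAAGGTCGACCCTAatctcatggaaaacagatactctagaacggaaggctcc
Pecam1-203: ttgagcctcaccaagagaacggaaggctcc

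In Thsd1 the exon has 159 bases at chr8:22252153-22252311 on the plus strand, is exon 4 of Thsd1-201 and is skipped by Thsd1-202. In Abcg3 it has 90 bases at chr5:104953084-104953173 on the minus strand, is exon 11 of Abcg3-201 and is skipped by Abcg3-202. All 3 exon lengths are multiples of 3, so that skipping the exon leaves the reading frame in place.
Thsd1-201: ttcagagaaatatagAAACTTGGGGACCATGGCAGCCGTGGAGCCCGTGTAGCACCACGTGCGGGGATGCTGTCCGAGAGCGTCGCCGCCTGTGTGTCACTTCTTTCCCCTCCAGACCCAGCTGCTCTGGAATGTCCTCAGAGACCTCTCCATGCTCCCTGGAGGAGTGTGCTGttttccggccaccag
Thsd1-202: ttcagagaaatatagttttccggccaccag
Abcg3-201: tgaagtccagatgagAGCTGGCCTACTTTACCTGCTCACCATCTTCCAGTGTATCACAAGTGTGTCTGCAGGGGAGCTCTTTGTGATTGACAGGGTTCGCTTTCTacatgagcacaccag
Abcg3-202: tgaagtccagatgagacatgagcacaccag

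The RefSeq promoter table of build GRCm38.p6 held 4 of the 8 genes, Abcg3, Thsd1, Golm1 and Gpr165. Its sequences were searched on both strands for 10 short motifs, and 2 are shown because they hold the rarest motif found and the only pair of core promoter elements close to the start. In Abcg3 the capitals mark ACTTCC, the reverse complement of the ETS core GGAAGT, 9 bases after the start; with the next bases it spells the reverse complement of the PU.1 motif GAGGAAGT, which overlaps it. In Gpr165 the capitals mark TATAAA, 30 bases before the start, and ATTGG, the reverse complement of CCAAT, 60 bases before it.
Abcg3, chr5:104982688-104982967, minus strand: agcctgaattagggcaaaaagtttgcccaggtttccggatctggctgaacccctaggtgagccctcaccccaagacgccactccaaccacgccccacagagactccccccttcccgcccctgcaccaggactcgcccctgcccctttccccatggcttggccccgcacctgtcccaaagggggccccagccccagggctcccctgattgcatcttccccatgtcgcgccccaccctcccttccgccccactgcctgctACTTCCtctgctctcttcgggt
Gpr165, chrX:96713218-96713497, plus strand: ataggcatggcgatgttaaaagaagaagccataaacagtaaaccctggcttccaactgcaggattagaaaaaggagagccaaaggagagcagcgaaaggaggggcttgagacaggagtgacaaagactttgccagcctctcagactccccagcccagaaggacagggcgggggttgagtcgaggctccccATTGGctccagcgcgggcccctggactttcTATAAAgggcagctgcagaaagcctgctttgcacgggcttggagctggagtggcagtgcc

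GAGGAAGT stood in 2.82% of all 32851 promoters and in 1 of these 4. GGAAGT stood in 22.3% of all and in 3 of the 4, CCAAT in 36.1% and in 2, TATAAA in 13.1% and in 2, GGGCGG in 34.7% and in 4, and TGTGGT in 15.6% and in 1. The MEF2 motif (CTA and TAG, 4 bases apart), the IRF motif (GAAA and GAAA, 2 bases apart), the AP-1 motif TGANTCA and the SMAD motif CAGACA stood in 3.5%, 3.28%, 7.46% and 19.6% of all promoters and in none of the 4.

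Compared per length, as CPM per kilobase of transcript, Golm1 was by far the most abundant of the genes. In female libraries with fracture its level was 372 ± 22 in repopulated and 458 ± 6.34 in resident microglia (SD, n = 4 each). On the same scale Upk1b stood at 13.6 ± 3.51 and 58 ± 6.45, and Tmem204 at 8.19 ± 1.66 and 23.6 ± 3.54, in female repopulated and resident microglia with fracture (SD, n = 4 each). The resident levels of Gpr165, Pecam1, Abcg3 and Thsd1 with fracture were 8.11, 6.69, 6.54 and 3.15 CPM per kilobase in females. In male resident libraries with fracture Khdrbs3 stood at 22.5 ± 3.17 CPM per kilobase, between Tmem204 at 27.1 ± 3.06 and Gpr165 at 7.5 ± 1.73 (SD, n = 5 each).

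**Figure D1:**
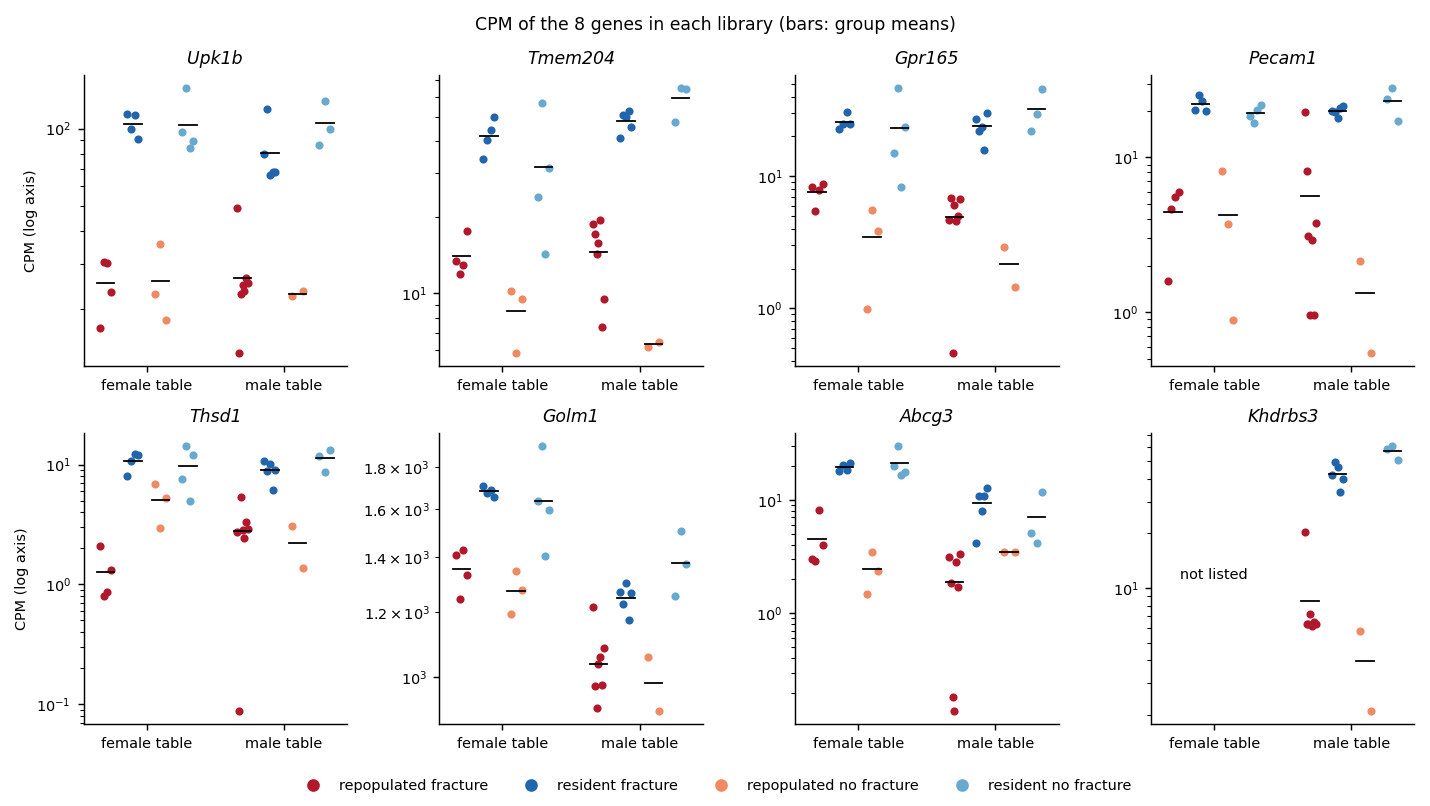
CPM of each gene (log axis) in every library of the female and male tables, by group, with black bars for the group means. Repopulated libraries lie below resident ones of the same fracture state, except for single libraries such as the one male repopulated library with fracture at 19.6 CPM of Pecam1.

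Pecam1 lies on the minus strand at chr11:106654217-106750628. In females with fracture its CPM were 1.59, 4.67, 5.54 and 5.95 in repopulated libraries, against 20.3, 25.2, 23 and 20 in resident ones. Without fracture they were 8.12, 3.72 and 0.895 in female repopulated libraries, against 18.4, 16.8, 20.2 and 21.7 in resident ones. The repopulated libraries thus stood below all resident ones in both fracture states, and the 3 without fracture differed among themselves more than the 4 resident ones did. The log2 fold change, repopulated over resident, was -2.32 ± 0.48 (SE) with and -2.19 ± 0.53 without fracture in females. In males with fracture the lowest, median and highest repopulated CPM were 0.957, 3.13 and 19.6, against 20, 19.8, 18, 20.8 and 21.5 in resident libraries. Without fracture they were 2.13 and 0.545 CPM in male repopulated libraries, against 23.9, 28.2 and 17.3 in resident ones. A single male repopulated library with fracture, replicate 1, lay within the resident range. The male log2 fold change was -1.82 ± 0.55 (SE) with fracture and -2.58 without that library, and it was -4.09 ± 1.08 (SE) without fracture. Without fracture the value rested on single libraries: it was -5.38 without male repopulated replicate 1 and -3.43 without replicate 2, and in females -3.07 without repopulated replicate 1.

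Pecam1 was spread over 3 listed transcripts. In female resident libraries Pecam1-203, which skips exon 14, took 30.1 ± 21.6% of the gene's estimated counts with fracture and 39.7 ± 8.8% without (SD, n = 4 each). In male resident libraries it took 23.8 ± 19.5% with fracture (SD, n = 5) and 50.4 ± 9.71% without (SD, n = 3). In repopulated libraries its share covered 0 to 100% in males with fracture, where the transcript had 0 to 140 estimated counts. Counts this low leave the split between the transcripts undetermined there, and differences in the shares between groups were not tested.

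Thsd1 lies on the plus strand at chr8:22227313-22261334. Its CPM in females with fracture were 2.1, 0.797, 0.871 and 1.33 in repopulated libraries, against 8.02, 10.7, 12.3 and 12.1 in resident ones. Without fracture they were 6.94, 2.93 and 5.31 in female repopulated libraries, against 7.59, 14.3, 4.99 and 12.1 in resident ones. The groups lay apart with fracture and overlapped without it, with log2 fold changes of -3.07 ± 0.41 (SE) with and -0.94 ± 0.41 (SE) without fracture. With fracture, male values spanned a lowest, median and highest CPM of 0.0875, 2.87 and 5.33 in repopulated libraries, against 10.8, 8.9, 10.2, 6.19 and 8.98 in resident ones. Without fracture male repopulated libraries had 3.07 and 1.36 CPM, against 11.8, 8.73 and 13.2 in resident ones. The male groups did not overlap in either state, and the log2 fold changes were -1.68 ± 0.44 (SE) with and -2.34 ± 0.76 (SE) without fracture. Without male repopulated replicate 1 the value without fracture was -3.04, and the lowest repopulated library with fracture rested on 1 estimated count. Thsd1-202, which skips the exon of 159 bases, took 53.2 ± 7.4% of the gene's estimated counts in female resident libraries with fracture (SD, n = 4) and 27.7 ± 10.5% in male ones (SD, n = 5). Without fracture its share was 51.2 ± 19.3% in female (SD, n = 4) and 43.7 ± 18% in male resident libraries (SD, n = 3), with overlapping ranges. Thsd1-201, which holds the exon, took 16.7 ± 13.4% in female (SD, n = 4) and 40.5 ± 23.9% in male resident libraries with fracture (SD, n = 5). Thsd1-203, also listed, took 30.2 ± 12.2% and 31.8 ± 21.4% in the same libraries. Whether Thsd1-203 holds the exon was not tested, so the counts outside Thsd1-202 are not all known to hold it.

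Tmem204 lies on the minus strand at chr17:25057702-25083591. With fracture it had 13.5, 11.9, 13 and 17.7 CPM in female repopulated libraries, against 34, 40.5, 44.5 and 49.8 CPM in resident ones. Without fracture it had 10.2, 5.81 and 9.51 CPM in female repopulated libraries, against 24.2, 56.6, 14.3 and 31.5 CPM in resident ones. No repopulated library reached a resident one of the same fracture state, and the resident libraries without fracture had the widest spread. The log2 fold changes in females were -1.59 ± 0.32 (SE) with and -1.9 ± 0.37 (SE) without fracture. Among males with fracture the lowest, median and highest CPM were 7.38, 15.8 and 19.6 in repopulated libraries, against 41.2, 51, 49.8, 52.7 and 45.6 in resident ones. Without fracture the male repopulated libraries had 6.14 and 6.45 CPM, below each of the 7 with fracture, against 47.8, 65.2 and 64.5 CPM in resident ones. The male log2 fold changes were -1.71 ± 0.19 (SE) with and -3.23 ± 0.34 (SE) without fracture. Tmem204-201 took at least 75.7% of the gene's counts in each female library and at least 86% in each male one.

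Upk1b lies on the minus strand at chr16:38773184-38800328. Its CPM with fracture were 16.9, 30.5, 30.1 and 23.2 in female repopulated libraries, against 114, 99.8, 113 and 90.9 in resident ones. Without fracture they were 22.9, 35.7 and 18.2 in female repopulated libraries, against 96.7, 144, 83.9 and 89.6 in resident ones. The female groups were well apart and nearly the same with and without fracture, at log2 fold changes of -2.05 ± 0.24 (SE) and -2.02 ± 0.26 (SE). Male libraries with fracture had a lowest, median and highest CPM of 13.5, 24.8 and 49.2 in repopulated libraries, against 79.7, 119, 66.4, 68.1 and 68 in resident ones. Without fracture the male repopulated libraries had 22.4 and 23.5 CPM, against 86.4, 128 and 100 CPM in resident ones. The male groups did not overlap, and the log2 fold changes were -1.6 ± 0.22 (SE) with and -2.19 ± 0.37 (SE) without fracture.

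Gpr165 lies on the plus strand at chrX:96713441-96719388 and had 1 listed transcript. With fracture it had 8.27, 5.41, 7.84 and 8.66 CPM in female repopulated libraries, against 22.6, 24.8, 30.4 and 25 CPM in resident ones. Without fracture it had 0.992, 5.58 and 3.86 CPM in female repopulated libraries, against 14.9, 46.6, 8.25 and 23.5 CPM in resident ones. The groups did not overlap, although the lowest female resident library without fracture came close to the repopulated ones. The female log2 fold changes were -1.77 ± 0.49 (SE) with and -2.74 ± 0.57 (SE) without fracture. The lowest, median and highest male CPM with fracture were 0.46, 5.03 and 6.82 in repopulated libraries, against 27.1, 22.1, 23.6, 15.9 and 30.3 in resident ones. Without fracture male repopulated libraries had 2.9 and 1.45 CPM, against 22, 29.4 and 45.8 CPM in resident ones. Every male repopulated library was below every resident one, at log2 fold changes of -2.27 ± 0.35 (SE) with and -3.89 ± 0.66 (SE) without fracture.

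Abcg3 lies on the minus strand at chr5:104935057-104982718. Its CPM with fracture were 3, 2.9, 8.08 and 3.98 in female repopulated libraries, against 17.9, 20.4, 18.5 and 21.2 in resident ones. Without fracture they were 1.49, 3.5 and 2.35 in female repopulated libraries, against 20, 29.9, 16.7 and 17.6 in resident ones. The female groups were far apart, with log2 fold changes of -2.12 ± 0.33 (SE) with and -3.1 ± 0.39 (SE) without fracture. In males with fracture the lowest, median and highest CPM were 0.137, 1.84 and 3.34 in repopulated libraries, against 4.13, 10.8, 7.91, 10.9 and 12.8 in resident ones. Without fracture male repopulated libraries had 3.5 and 3.45 CPM, against 5.1, 4.2 and 11.8 CPM in resident ones. The male groups without fracture were close but did not overlap, and the log2 fold change of -1.03 ± 0.86 (SE) there had an error nearly as large as itself and was -0.41 without resident replicate 3. With fracture the male value was -2.31 ± 0.54 (SE), and 2 of the repopulated libraries had 2 estimated counts each. Abcg3-201 took 86.6 ± 3.19% of the gene's estimated counts in female (SD, n = 4) and 82.2 ± 4.89% in male resident libraries with fracture (SD, n = 5).

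Khdrbs3 lies on the plus strand at chr15:68928420-69101211 and had 1 listed transcript, in the male table. With fracture the lowest, median and highest CPM were 6.18, 6.35 and 20.5 in male repopulated libraries, against 42, 49.3, 46.7, 33.9 and 40 in resident ones. Without fracture it had 5.8 and 2.09 CPM in male repopulated libraries, against 58.2, 60.8 and 51.1 CPM in resident ones. Apart from replicate 1, the repopulated libraries with fracture agreed within about 1 CPM. The log2 fold changes were -2.32 ± 0.27 (SE) with and -3.83 ± 0.51 (SE) without fracture, and -2.71 with fracture without replicate 1. Without fracture it was -4.75 when repopulated replicate 1 was left out. The related gene Khdrbs1 stood at 98.4 ± 12.1 CPM (SD, n = 7) in male repopulated and 94.9 ± 9.3 CPM (SD, n = 5) in resident libraries with fracture, a log2 fold change of 0.05 ± 0.11 (SE) that did not pass in edgeR's quasi-likelihood test (Benjamini-Hochberg adjusted p = 0.891).

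Golm1 lies on the minus strand at chr13:59634626-59675811, and its exons overlap those of Naa35 on the opposite strand. Since strand-specific counting is not stated, reads of the 2 genes cannot be told apart there. With fracture Golm1 had 1407, 1245, 1428 and 1331 CPM in female repopulated libraries, against 1710, 1676, 1690 and 1659 CPM in resident ones. Without fracture it had 1193, 1346 and 1278 CPM in female repopulated libraries, against 1638, 1912, 1406 and 1598 CPM in resident ones. These are the smallest relative differences among the 8 genes, yet the female groups did not overlap. The log2 fold changes were -0.32 ± 0.08 (SE) with and -0.36 ± 0.08 (SE) without fracture. In males with fracture the lowest, median and highest CPM were 918, 1038 and 1217 in repopulated libraries, against 1268, 1227, 1303, 1174 and 1267 in resident ones. Without fracture they were 1057 and 909 in male repopulated libraries, against 1257, 1507 and 1372 in resident ones. With fracture the highest repopulated library, again replicate 1, passed the lowest resident one, and without fracture the groups were apart. The male log2 fold changes were -0.26 ± 0.07 (SE) with and -0.49 ± 0.11 (SE) without fracture.

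**Figure D2:**
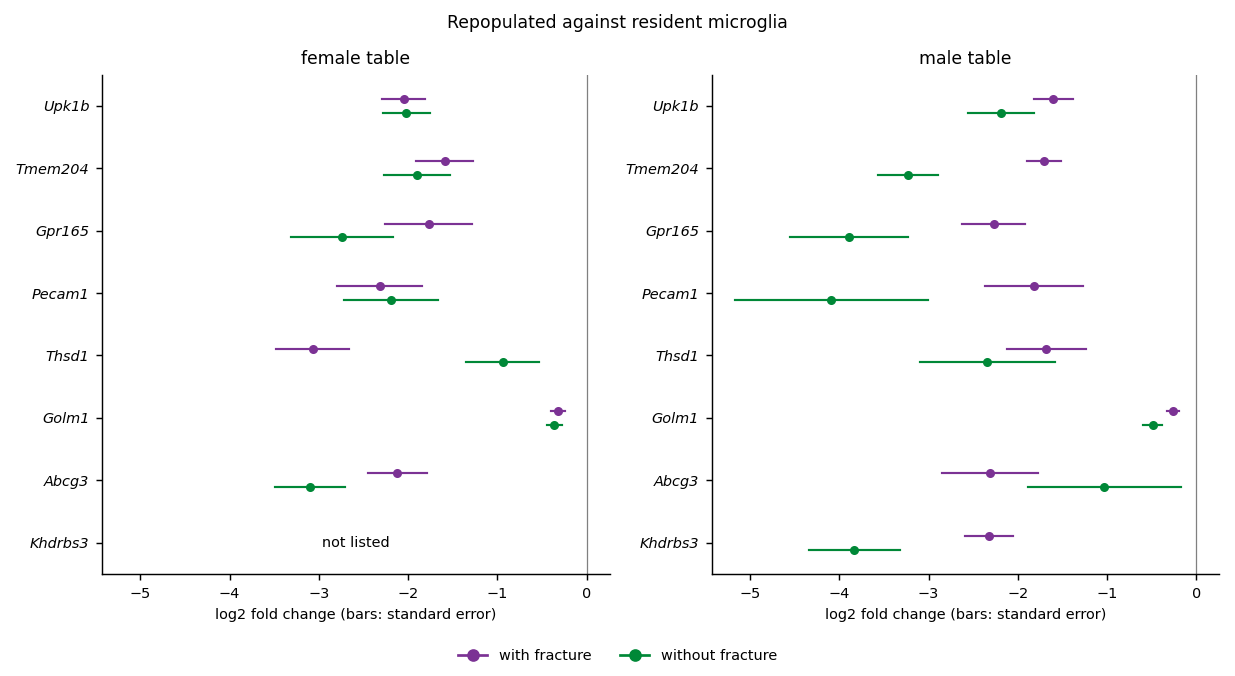
Log2 fold change of each gene, repopulated over resident, with (upper) and without fracture (lower) in the female and male tables. Bars are standard errors. All values are below 0, since the genes were chosen for this, and Golm1 is closest to 0, at -0.26 to -0.49.

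Golm1 was deep enough to follow its transcripts. Golm1-201 and Golm1-202 share their coding exons and differ in a noncoding second exon of 136 bases, chr13:59674961-59675096, which Golm1-202 holds and Golm1-201 does not, and in the length of the first and last exons. In females with fracture Golm1-202 took 58.3 ± 3.11% of the gene's estimated counts in repopulated and 61 ± 2.48% in resident libraries (SD, n = 4 each). Without fracture its share was 56.6 ± 2.93% in female repopulated (SD, n = 3) and 62.7 ± 2.31% in resident libraries (SD, n = 4), and the ranges overlapped. In females the log2 fold change of Golm1-202 was -0.42 ± 0.09 with and -0.55 ± 0.1 without fracture, and that of Golm1-201 was -0.26 ± 0.1 with and -0.17 ± 0.11 without (SE). In males Golm1-202 was the smaller transcript, with 26.8 ± 3.35% of the counts in repopulated (SD, n = 7) and 27.8 ± 5.91% in resident libraries with fracture (SD, n = 5). Its male log2 fold change was -0.34 ± 0.13 with and -0.81 ± 0.2 without fracture, and that of Golm1-201 was -0.25 ± 0.09 with and -0.38 ± 0.15 without (SE). The opposite order of the transcripts in the 2 tables cannot be told apart from the library preparation.

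**Figure D3:**
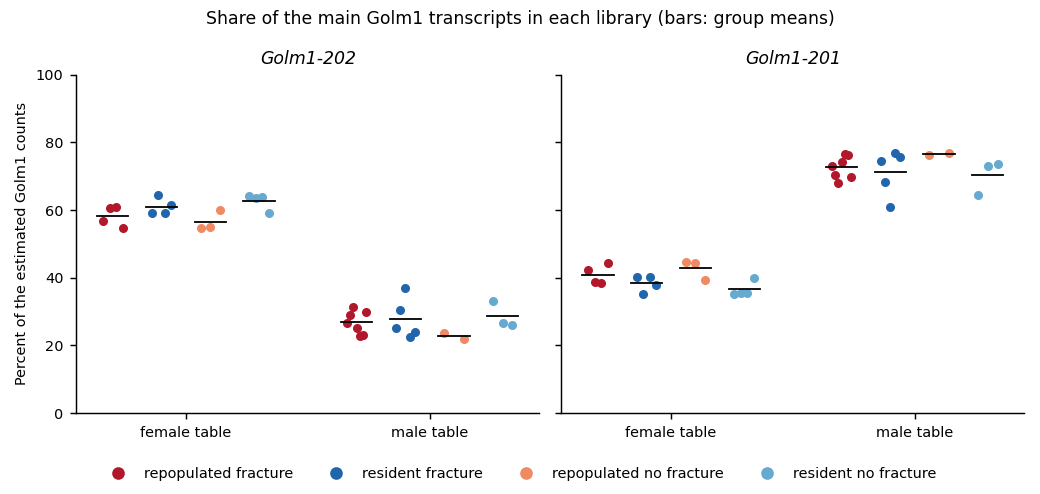
Share of the estimated Golm1 counts (percent) taken by Golm1-202 and Golm1-201 in each library, by group and table, with black bars for group means. Golm1-202 holds more than 50% in the female libraries and less than 40% in the male ones, whatever the group.

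Read across the genes, group means in repopulated microglia were 11.8 to 80.3% of the resident mean with fracture and 11.6 to 77.7% without it in females. For males the range was 20 to 83.3% with and 5.79 to 71.3% without fracture. By edgeR's quasi-likelihood test, at a Benjamini-Hochberg adjusted p under 0.05 over all genes, 6 of the 7 genes passed in the lower direction with fracture in females, where 1.08% of all genes passed lower, 1.27% higher and 2.35% in either direction. Without fracture 6 of 7 passed there, against 0.964% of all genes lower, 1.56% higher and 2.53% in either direction. In males 7 of 8 passed with fracture, against 1.88% of all genes lower, 3.03% higher and 4.91% in either direction. Without fracture 6 of 8 passed in males, against 2.72% lower, 4.7% higher and 7.42% in either direction. All repopulated libraries stood below all resident ones for 7 of 7 genes with fracture in females (5.64% of all genes), 6 of 7 without (6.44%), 6 of 8 with fracture in males (1.58%) and 8 of 8 without (18.4%). The genes were chosen on these contrasts, so nothing is read from the counts.

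The order of the 4 group means was resident with fracture, resident without fracture, repopulated with fracture and repopulated without fracture for Tmem204, Gpr165, Golm1 and Pecam1 in females. In males it was resident without, resident with, repopulated with and repopulated without fracture for Tmem204, Upk1b, Khdrbs3, Gpr165, Golm1, Thsd1 and Pecam1. Abcg3 had its highest mean in resident libraries without fracture in females and with fracture in males. Most neighbours in these orders overlapped. Repopulated libraries with and without fracture lay apart, in either direction, for 2 of 7 genes in females, Tmem204 and Thsd1, and for 13% of all genes. For males this held for 3 of 8, Tmem204, Khdrbs3 and Abcg3, and for 7.08% of all genes. Resident libraries with and without fracture lay apart for 0 of 7 genes in females (3.09% of all genes) and for 1 of 8 in males, Khdrbs3 (4.53%).

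The effect of fracture was not itself used to choose the genes, but it is not independent of the choice. The comparison in repopulated microglia uses the libraries in which the genes were chosen as low. The interaction is the difference of the 2 repopulation changes on which they were chosen. The values, counts and p-values of these comparisons are therefore read as a description. No gene of the 8 passed in resident microglia, in repopulated microglia or in the interaction, which is the repopulation change with fracture minus that without. Of all genes, 0% passed in each of the 3 comparisons in females and 0.00833% in each in males. At an unadjusted p under 0.05, none of the genes stood in resident microglia of either table, against 4.93% of all genes in females and 4.26% in males. In repopulated microglia 2 of 7 stood there in females (10.5% of all genes) and 4 of 8 in males (8.29%), and in the interaction 1 of 7 (3.69%) and 3 of 8 (7.38%). DESeq2 called 1 gene, Thsd1 in female repopulated microglia, where it called 90 of all genes. It gave no adjusted p for Tmem204 and Thsd1 in male repopulated microglia.

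Thsd1 had the lowest p among the genes in females. Its level was 1.27 ± 0.597 CPM (SD, n = 4) in repopulated microglia with fracture and 5.06 ± 2.02 CPM (SD, n = 3) without, and all 4 libraries with fracture were below the 3 without. The log2 fold change was -1.98 ± 0.42 (SE; edgeR, adjusted p = 0.264, and 0.155 to 0.555 when 1 library was left out). DESeq2 gave -2 with an adjusted p of 0.00734, so the call depends on the tool. In female resident microglia the change was 0.15 ± 0.37 (SE; edgeR adjusted p = 0.973), and the interaction was -2.13 ± 0.56 (SE; edgeR adjusted p = 1). In male repopulated microglia Thsd1 stood at 2.82 ± 1.54 CPM with (SD, n = 7) and 2.22 ± 1.21 CPM without fracture (SD, n = 2), a log2 fold change of 0.34 ± 0.64 (SE; edgeR adjusted p = 0.962).

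Tmem204 had the lowest p in males. It averaged 14.7 ± 4.65 CPM in repopulated microglia with fracture (SD, n = 7) and 6.3 ± 0.22 CPM without (SD, n = 2), and was higher in 7 of 7 libraries. The log2 fold change was 1.22 ± 0.3 (SE; edgeR, adjusted p = 0.285), with an approximate 95% interval of 0.64 to 1.8. The interaction was 1.52 ± 0.37 (SE; edgeR adjusted p = 0.338), as Tmem204 averaged 48.1 ± 4.66 CPM with (SD, n = 5) and 59.2 ± 9.85 CPM without fracture (SD, n = 3) in male resident microglia. Without replicate 6, the lowest of the repopulated libraries with fracture, both passed, at 1.33 (edgeR adjusted p = 0.0247) and 1.63 (edgeR adjusted p = 0.0425). Without any other library the adjusted p was 0.151 to 1 for the change and 0.192 to 0.834 for the interaction. In female repopulated microglia the change was 0.73 ± 0.35 (SE; edgeR adjusted p = 0.489).

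The other genes did not pass in any fracture comparison. In male repopulated microglia the log2 fold changes with fracture were 1.09 ± 0.43 for Khdrbs3, 1.17 ± 0.56 for Gpr165 and 2.06 ± 0.95 for Pecam1 (SE; edgeR adjusted p = 0.511, 0.6 and 0.584). In female repopulated microglia they were 1.11 ± 0.54 for Gpr165 and 0.87 ± 0.37 for Abcg3 (SE; edgeR adjusted p = 0.492 and 0.443). Abcg3 had the other sign in male repopulated microglia, -0.89 ± 0.72 (SE; edgeR adjusted p = 0.817). For Golm1 the approximate 95% intervals were narrow, -0.07 to 0.25 in female and -0.1 to 0.26 in male repopulated microglia. Those of Upk1b were -0.51 to 0.46 and -0.41 to 0.82.

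**Figure D4:**
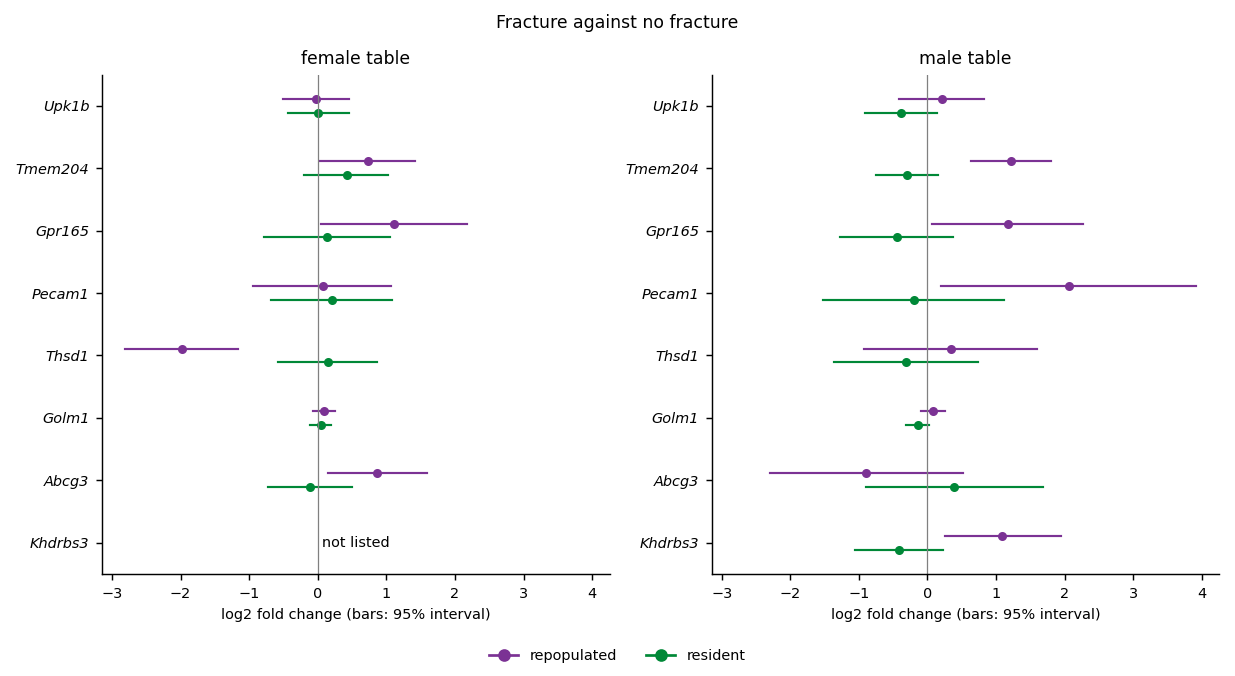
Log2 fold change of each gene, fracture over no fracture, in repopulated (upper) and resident microglia (lower) of each table. Bars are approximate 95% intervals from the standard errors of the edgeR fit, and are narrower than its test implies. Those of Thsd1 in female and Tmem204 in male repopulated microglia lie farthest from 0, at -2.81 to -1.16 and 0.64 to 1.8, and neither passed after adjustment over all genes.

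Within groups, single libraries moved several of the genes at once. Among the 4 female resident libraries without fracture, replicate 2 was the highest for 6 of the 7 genes and replicate 3 the lowest for 6 of 7, and Pecam1 was the exception to both. Replicate 3 also lay toward the repopulated libraries over 107 other genes. These had been called with fracture at a log2 fold change of more than 1 in either direction. Position is the median over these genes, where 0 is the mean of the resident and 1 that of the repopulated libraries of the fracture state in which the genes were called. Replicate 3 stood at 0.22, and the other 3 stood at -0.1, 0.03 and -0.03. In the male repopulated group with fracture, replicate 1 had the highest value of 4 of the 8 genes, 49.2 CPM of Upk1b, 20.5 of Khdrbs3, 1217 of Golm1 and 19.6 of Pecam1. Over 386 other genes called without fracture by the same limits it stood at 0.42, against 0.6 to 0.94 in the other 6 repopulated and 0.14 to 0.26 in the 5 resident libraries. What part the composition of these libraries has in the values was not tested.

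**Figure D5:**
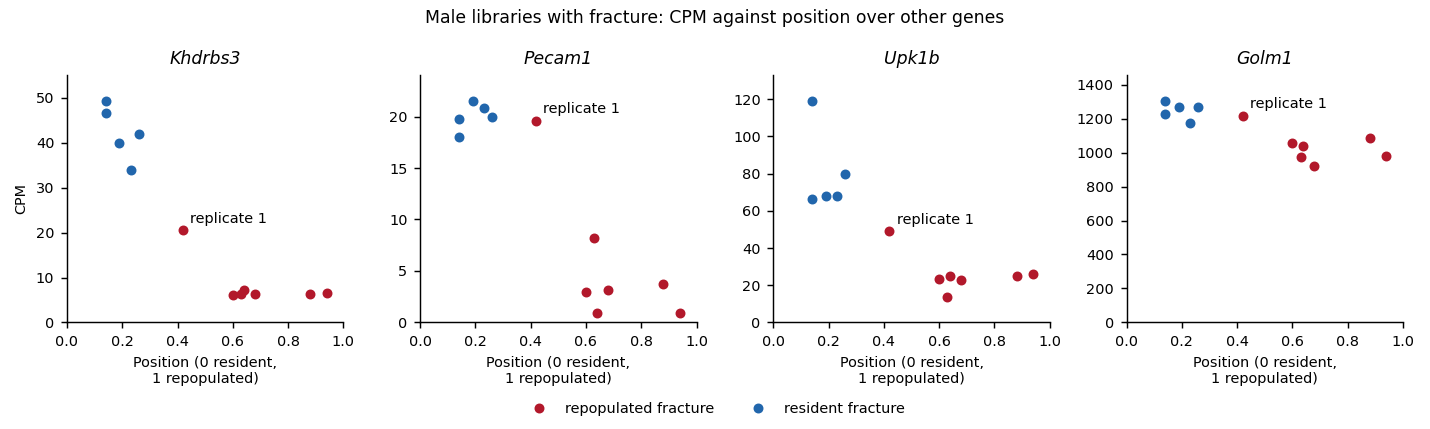
CPM of Khdrbs3, Pecam1, Upk1b and Golm1 against the position of each male library with fracture over 386 other genes (0 resident, 1 repopulated). The repopulated library replicate 1, at 0.42, lies between the other repopulated libraries and the resident ones in position, and its Pecam1 (19.6 CPM) and Golm1 (1217 CPM) lie within the resident range.

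After group means were subtracted, log2 CPM of the genes correlated with a median Pearson r of 0.39 over 21 pairs in females (range -0.4 to 0.84, 15 libraries) and 0.22 over 28 pairs in males (range -0.33 to 0.73, 17 libraries). The closest pairs were Gpr165 with Golm1 at 0.84 and Tmem204 with Thsd1 at 0.81 in females, and Khdrbs3 with Golm1 at 0.73 in males. Gpr165 with Golm1 had 0.52 in males, and Tmem204 with Thsd1 had -0.31 there. The libraries share preparation and scaling, and these are descriptions over few points.

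Among all genes of at least 5 CPM, the within-group pattern of Tmem204 was closest to Caml (r = 0.913) and Siglece (0.904) over 15 female libraries and to P2ry12 (0.901) and Slc40a1 (0.88) over 17 male ones. Siglece had 0.725 with Tmem204 in males, and P2ry12, a purinergic receptor of homeostatic microglia, 0.587 in females. For Golm1 the closest were P2ry13 (0.939) and Gm3488 (0.914) in females and Sort1 (0.878) and Cops2 (0.843) in males. For Upk1b they were Lamtor3 (0.877) and Ufd1 (0.876) in females and Osbpl1a (0.911) and Brip1os (0.813) in males, and for Gpr165 Dusp6 (0.921) and Ncs1 (0.905), and Nbeal2 (0.902) and Scaf1 (0.888). For Abcg3 they were Rap1gap2 (0.857) and Adamts16 (0.85) in females and Spg7 (0.836) and Galnt1 (0.818) in males. For Thsd1 they were Ccnh (0.877) and Gemin5 (0.869), and Dagla (0.944) and Cd101 (0.93), and for Pecam1 Med29 (0.899) and Enpp5 (0.89), and Hist1h2ap (0.866) and Gimap6 (0.812). Khdrbs3 was closest to Zfp36 (0.89) and Btg2 (0.881) in males. Apart from Siglece, the neighbours found in one table had an r between -0.452 and 0.621 in the other.

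Pecam1, Thsd1 and Tmem204 are best known from endothelium. The 7 endothelial markers listed in the female table summed to 1124 to 1219 CPM in repopulated and 1306 to 1328 CPM in resident libraries with fracture. Without fracture they summed to 1160 to 1243 and 1217 to 1335 CPM. In males they summed to 987 to 1138 CPM in repopulated and 1126 to 1231 CPM in resident libraries with fracture, and to 1037 to 1102 and 1175 to 1259 CPM without. Much of each sum was Cd34, which microglia and other blood-lineage cells also express, at 816 ± 42 CPM in female repopulated and 830 ± 13.7 CPM in resident libraries with fracture (SD, n = 4 each).

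Among the listed endothelial markers, Ecscr and Eng passed as lower and Kdr as higher. They are to be read against the shares of all genes called, given with the next lists. Ecscr, a surface protein of endothelial cells that is also on the list of homeostatic microglial genes used here, was lower in all 4 comparisons of repopulated with resident microglia, with log2 fold changes of -0.88 ± 0.12 with and -0.61 ± 0.13 without fracture in females and -0.8 ± 0.13 and -1.35 ± 0.22 in males (SE; edgeR adjusted p = 0.0022, 0.0205, 0.00113 and 0.000583). Eng, a co-receptor of the TGF-beta family, was lower in females without fracture and in males in both states, by up to -0.75 ± 0.14 (SE; edgeR adjusted p = 0.00139) in males without fracture. Kdr, a VEGF receptor, was higher in males without fracture, at 2.58 ± 0.69 (SE; edgeR adjusted p = 0.0241). That value rests on 2 repopulated libraries, at 19.9 and 35.5 CPM, against 0.356 to 7.22 CPM in the 3 resident ones. Flt1 was near 0 in the female table, at 0.815 ± 0.781 CPM in repopulated and 0.829 ± 0.918 CPM in resident libraries with fracture (SD, n = 4 each), and was not listed in males. The defining endothelial genes named above were listed in neither table, and the part of endothelial cells in the 3 levels was not tested.

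Pecam1 is also carried by platelets. Beside the counts of the next lists stand the shares of all genes called, which in females were 1.08% lower and 1.27% higher with fracture and 0.964% lower and 1.56% higher without it, and in males 1.88% lower and 3.03% higher with and 2.72% lower and 4.7% higher without it. Of 11 platelet markers 6 were listed for females and 4 for males, and Gp9, at -1.36 ± 0.29 in males without fracture (SE; edgeR adjusted p = 0.00466), was the only one that passed in any of the 4 comparisons. Of 14 listed partners of Pecam1 signalling none passed in females in either state, and of 15 in males none passed with fracture and Csk, a kinase that holds Src family kinases in check, was lower without it, at -0.65 ± 0.15 (SE; edgeR adjusted p = 0.00822). Of 17 focal adhesion genes 1 was lower in each fracture state in females, 2 were lower with fracture in males and 1, Itgb1, was higher without. Flna, an actin cross-linker, was lower at -0.65 ± 0.14 in females with fracture (SE; edgeR adjusted p = 0.0291), and Pxn, the adhesion scaffold paxillin, at -0.45 ± 0.09 in males with fracture (SE; edgeR adjusted p = 0.004).

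Among 30 homeostatic microglial genes, all listed and to be read against the same shares of all genes, 4 were lower and 3 higher with fracture and 8 lower and 3 higher without it in females. In males 11 were lower and 2 higher with fracture, and 13 lower and 2 higher without. The median log2 fold changes of the list were -0.17 and -0.2 in females and -0.27 and -0.34 in males, with and without fracture, against 0, -0.019, -0.005 and -0.028 over all genes. P2ry12, for example, was lower in males at -0.49 ± 0.09 with and -1.12 ± 0.15 without fracture (SE; edgeR adjusted p = 0.00288 and 7.77e-05), and Lag3, an inhibitory receptor, was higher at 0.93 ± 0.13 with fracture (SE; edgeR adjusted p = 0.000199). Of 13 listed markers of circulating macrophages in males 2 were higher with and 5 without fracture, and of 12 in females 6 were higher in each state. Pilra, a paired immunoglobulin-like receptor of myeloid cells, was higher in all 4 comparisons, by 1.65 ± 0.32 with and 2.57 ± 0.48 without fracture in males (SE; edgeR adjusted p = 0.00608 and 0.00322). Of the 3 listed B cell markers 2 were lower with and 3 without fracture in females, and 2 and 1 in males, and their summed level was 389 to 461 CPM in repopulated and 545 to 600 CPM in resident female libraries with fracture. The part of such cells in the results was not tested.

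Relatives of the 8 genes were taken by family, except for Gpr165 and Golm1. These were set beside broader lists, G protein-coupled receptors of myeloid cells and Golgi membrane and glycosylation genes. Some of the receptors, such as P2ry12 and P2ry13, are also among the homeostatic genes counted above. Of 19 tetraspanins and uroplakins 1 was higher with and 2 higher without fracture in females, against 1.27% and 1.56% of all genes. In males 3 were lower and 2 higher with fracture (1.88% and 3.03% of all genes), and 4 lower and 3 higher without (2.72% and 4.7%), among them Tspan13 at -0.98 ± 0.17 and Cd63, a lysosomal tetraspanin, at 0.89 ± 0.19 (SE; edgeR adjusted p = 0.000677 and 0.00555). Of 27 myeloid G protein-coupled receptors in females 1 was lower and 2 higher with fracture (1.08% and 1.27% of all genes), and 3 were lower and 2 higher without (0.964% and 1.56%). Of 28 in males 7 were lower and 3 higher with fracture (1.88% and 3.03% of all genes), and 7 lower and 5 higher without (2.72% and 4.7%). Gpr160 was higher in all 4. P2ry13 was lower in males in both states and in females without fracture, there at -0.71 ± 0.14 (SE; edgeR adjusted p = 0.0168). Abcg1, a cholesterol exporter, was higher without fracture, at 0.59 ± 0.11 in females and 0.77 ± 0.19 in males (SE; edgeR adjusted p = 0.0156 and 0.0148), and Abcg2 did not pass. Of 20 Golgi membrane and glycosylation genes in females none passed, and of 21 in males 1, Mgat1, was lower without fracture, at -0.39 ± 0.11 (SE; edgeR adjusted p = 0.0371). Of the STAR family, Qk was lower in males with fracture, at -0.27 ± 0.06 (SE; edgeR adjusted p = 0.00473).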

How the data were processed

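Both tables hold whole-number estimated counts of transcripts, as deposited by the authors. The tools named in the submitters' processing notes include cutadapt 3.4, Trim Galore 0.6.7, STAR 2.7.6a, RSEM 1.3.1 and DESeq2 1.34.0, with build GRCm38, and no role or annotation is stated for them. Every listed transcript had at least 10 counts in at least 8 of 15 female or 9 of 17 male libraries. A gene detected in few samples is thus missing, and a gene's transcripts can be listed in part. Rows without a symbol held 0.305% of the female and 0.0706% of the male counts.

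Counts were summed per gene. The 4 groups of a table entered a single robust quasi-likelihood fit (edgeR 4.0.16 under R 4.3.3, with TMM scaling and filterByExpr), with Benjamini-Hochberg adjustment over all genes and a threshold of 0.05. The fit was tested on counts simulated with the same dispersion for every gene. The stability of the calls in the real libraries was not part of that test. The standard error was taken as the size of the change over the root of its F value. The 95% intervals are approximate, since they combine it with a normal distribution and are narrower than the quasi-likelihood test implies. For Tmem204 in female repopulated microglia, for example, the interval for fracture was 0.03 to 1.42 at an unadjusted edgeR p of 0.0586. Levels per length use GENCODE vM21 transcript lengths. Alternatives were DESeq2 1.42.0, other scalings, no filter, fits of only 2 groups, a block for replicate number, and leaving out each library. The 8 genes, the gene lists and the tests were chosen with earlier results of these data known. Named are all 8 genes, called list members with the lowest adjusted p, endothelial and platelet markers, close homologs, and the 2 genes closest in pattern.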

Additional observations from a re-analysis of the deposited data

Results flagged for a closer look

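In 37 groups of 4 to 10 libraries, 5 values lay far from the rest of their group by Dixon's test at the 95% level, which flags about 1 group in 20 by chance. Of these, 3 belong to male repopulated library replicate 1 with fracture, in which Upk1b had 49.2 CPM (13.5 to 26.3 in the other libraries of the group), Khdrbs3 20.5 CPM (6.18 to 7.18) and Pecam1 19.6 CPM (0.957 to 8.22). Gpr165 had 0.46 CPM in male repopulated replicate 3 with fracture, against 4.61 to 6.82 CPM in the others. Upk1b had 119 CPM in male resident replicate 2 with fracture, against 66.4 to 79.7 CPM in the others.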

How the results depend on the processing

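Each repopulation change of the 8 genes kept its negative sign under each alternative and without each library. The genes were chosen as lower in these libraries, so the kept sign is a description and no support for the difference. The number of genes called was less stable, and so was the number over all genes. In females without fracture 6 of 7 became 0 with only the 2 groups in the fit, where 0 of all genes passed. It became 2 with the replicate block (143 of all genes) and 3 to 6 without 1 library (51 to 612 of all genes). It was 3 without resident replicate 4 or any of the 3 repopulated ones. In females with fracture it was 3 to 7 without 1 library, beside 106 to 488 of all genes. It was 3 there without resident replicate 3 or repopulated replicate 1 or 2. In males with fracture it was 1 (39 of all genes) among libraries with the lower run of label numbers, whose meaning is not given. It was 5 (43 of all genes) among those with the higher run. Pecam1 was at -0.9 in the lower and -3.29 in the higher run. In repopulated microglia, fracture called 1 gene in females by DESeq2 (Thsd1, beside 90 of all genes). In males it called 1 with the replicate block (Tmem204, 1.42, edgeR adjusted p = 0.0189, beside 56 of all genes). The block also called Tmem204 in the interaction (1.73, edgeR adjusted p = 0.0182, beside 57 of all genes). Without 1 library both male counts were 0 to 1. Samples of the same number did not deviate together (median r of -0.01 in both tables, with 3 of 21 and 0 of 17 pairs above 0.1, and 5 of 15 and 0 of 17 libraries closest to their own number), so the numbers were not taken as pairs.

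Over all genes, the 338 calls in females without fracture became 676 by DESeq2, 0 with only the 2 groups and 143 with the block, and 51 to 612 without 1 library. The 315 with fracture became 694, 629 and 184, and 106 to 488. In males without fracture the 890 became 414 to 949 without 1 library. In males with fracture the 589 calls became 293 with the block and 39 and 43 in the lower and higher runs of label numbers. For fracture, 0 calls in female resident microglia became 4 by DESeq2, and 0 in female repopulated ones 90 by DESeq2 and 86 with only the 2 groups. In males 1 call in resident microglia became 12, 5 and 2 by DESeq2, with only the 2 groups and with the block, and 1 in repopulated ones 58, 0 and 56, and 1 to 29 without 1 library. The interaction had 1 call by DESeq2 in females, and 49 by DESeq2 and 57 with the block in males, and 0 to 14 without 1 library. The cause was not tested.

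Signs turned for small fracture and interaction changes. With the replicate block they were 0.05 for Upk1b in female repopulated microglia and 0 in the female interaction, 0.24 for Pecam1 in male resident and -0.04 for Thsd1 in male repopulated microglia. Without 1 library, female resident changes ran from -0.07 to 0.21 for Upk1b, -0.13 to 0.72 for Gpr165, -0.02 to 0.12 for Golm1, -0.2 to 0.11 for Abcg3 and -0.07 to 0.39 for Thsd1, and female repopulated ones from -0.21 to 0.29 for Upk1b and -0.41 to 0.95 for Pecam1. The female interaction ran from -0.13 to 0.55 for Tmem204, -0.24 to 0.27 for Upk1b, -0.03 to 0.11 for Golm1 and -0.62 to 0.74 for Pecam1. Male repopulated changes ran from -0.02 to 0.32 for Upk1b, -0.02 to 0.19 for Golm1 and -0.13 to 1.04 for Thsd1. Depth limits Thsd1, Abcg3, Gpr165 and Pecam1, since the lowest male repopulated library held 1, 2, 5 and 6 counts of them.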
